A study of Mus musculus with 2 samples.

Results

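The 4 Hox gene clusters of the mouse were examined for open chromatin in adult hippocampus. The members were all protein-coding genes of the GENCODE M21 annotation whose symbol is Hox followed by a cluster letter a to d and a number. This gave 39 genes of 21853, with 11 in cluster A, 10 in cluster B, 9 in cluster C and 9 in cluster D. Each cluster was studied from 50 kb before its first Hox base to 50 kb after its last, a region of 205 kb on chromosome 6 for cluster A, 274 kb on chromosome 11 for cluster B, 216 kb on chromosome 15 for cluster C and 197 kb on chromosome 2 for cluster D.

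Chromatin was probed by DNase-seq, in which the nuclease DNase I cuts DNA that nucleosomes leave exposed and the cut ends are sequenced. The series held 1 group of 2 samples, biological replicates 1 and 2, from male B6CASTF1/J mice aged 2 months, a first-generation cross of the B6 and CAST strains. The tissue was labelled as a layer of the hippocampus without saying which layer, and no treatment, allele or other tissue was given. The replicates were separate biosamples with the same donor entry, so the spread between them may be partly technical.

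Hox genes encode homeodomain transcription factors that tell cells where they lie along the head-to-tail axis. Within a cluster the genes stand in a row, and genes of the same number in different clusters are paralogues that descend from 1 ancestral gene. The low numbers at the 3′ end of each cluster act in the hindbrain and the high numbers at the 5′ end in the trunk and tail, while the forebrain, to which the hippocampus belongs, lies in front of their domains. Polycomb complexes keep Hox genes silent where they are not used, trithorax (MLL) complexes keep them active where they are, and the DNA-binding protein CTCF marks borders between silent and active stretches inside the clusters.

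A peak is a stretch the authors called as accessible, and its height is given below in their deposited signal units, for replicate 1 first and replicate 2 second. A site is a peak of the longer deposited list, with overlapping peaks of both replicates joined, and a shared site has peaks of both replicates that overlap. Sites are named by their cluster letter and a number that counts along the chromosome. A footprint is a short stretch inside open chromatin that was cut less than its surroundings. Replicate 1 held 132685 peaks and 255536 footprints, replicate 2 held 59880 and 111355, and how the heights were scaled is not stated by the labels or files. Because the tissue is a mixture, a site open in few cells and a site weakly open in many cannot be told apart.

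The labelled tissue was checked against promoters of marker genes. Of 10 excitatory neuron genes 8 had a shared peak, against 57.1% of all protein-coding genes, led by Zbtb18 (5.63 and 3.33) and Camk2a (3.67 and 2.73), and the other 2, Slc17a7 and Prox1, had one in replicate 1 only. Shared peaks were found for 1 of 5 interneuron, 2 of 5 astrocyte, 2 of 5 oligodendrocyte, 0 of 5 microglia, 0 of 5 endothelial and 1 of 5 meningeal or fibroblast genes. In replicate 1 alone the counts were 10 of 10 for excitatory neurons, 4 of 5 each for interneurons, astrocytes and oligodendrocytes, 2 of 5 for microglia, 1 of 5 for endothelium and 3 of 5 for meninges or fibroblasts. These lists are short, and the counts describe the tissue without testing its label. Among 7 genes of hindbrain and spinal cord 2 had a shared peak, among them Egr2 (2.58 and 2.16), which patterns the hindbrain but is also used outside it. Tlx3 had a peak in replicate 2 only, En2 in replicate 1 only, and En1 and Lbx1 had none.

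The sequences that carry the main pattern come from an accessible site in the middle of each cluster, between the coding parts of paralogues 9 and 8 in clusters B, C and D, and between Hoxa9 and Hoxa7 in cluster A, which has no paralogue 8. Each of these 4 sites was shared and held a CTCF-like match, 20 bases that resemble the sequence CTCF binds. The match stands in capitals below, followed in lower case by the next 10 bases, and each is written in the direction in which the Hox genes of its cluster are transcribed. They were read from the RefSeq copy of GRCm38.p6, the same assembly as mm10, which is of the C57BL/6J strain, so the CAST allele may differ.
A6, at the Hoxa7 promoter, chr6:52221794-52221823, minus strand: ATTCCAGGAGATGGCAGTGTggctccacgc
B8, between Hoxb9 and Hoxb8, chr11:96278945-96278974, plus strand: TGGCCGCTAGATGGCATCCTtgctccatat
C3, between Hoxc9 and Hoxc8, chr15:102987590-102987619, plus strand: TGAACGCGAGGTGGCGCTGTtgctcaatgt
D7, between Hoxd9 and Hoxd8, chr2:74702392-74702421, plus strand: TGGCCACTAGAGAGCGCTGTtgctccactt

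The 4 sequences resembled each other beyond the match. Over the 20 match bases the 6 pairs had 11 to 13 identical bases, median 11.5, near the median of 11 (7 to 16) over the 130 other pairs of the 17 CTCF-like matches found in the Hox regions. Over the next 10 bases, which the search for matches did not use, the 6 pairs had 6 to 8 identical bases, median 7, against a median of 2.5 (0 to 7) for the other pairs. All 4 carried the letters NGCTCNA directly after the match, on the strand of the match, and the other 13 matches of the Hox regions did not. Of 10394 CTCF-like matches in shared peaks outside the clusters and 100 kb around them, 79 carried these letters at that place, or 0.760%. The comparison and the letters were chosen after the sequences had been seen, so they are a description of these sites.

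For 3 of them the whole replicate 1 peak is shown next, with the bases that lay in footprints of both replicates in capitals. In each of these 3 a run protected in both replicates lay over all or most of the match. In B8 and D7 further protected runs lay outside it. In A6, whose peak is not shown, a run protected in both replicates (chr6:52221801-52221819) also lay over most of the match. D8, the other shared site inside cluster D, and A12, a shared site that fell short of a match, are shown for comparison.
B8, chr11:96278901-96279060, plus strand: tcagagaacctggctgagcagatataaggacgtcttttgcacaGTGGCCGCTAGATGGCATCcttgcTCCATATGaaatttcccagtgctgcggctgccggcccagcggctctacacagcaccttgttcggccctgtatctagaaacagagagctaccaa
C3, chr15:102987521-102987700, plus strand: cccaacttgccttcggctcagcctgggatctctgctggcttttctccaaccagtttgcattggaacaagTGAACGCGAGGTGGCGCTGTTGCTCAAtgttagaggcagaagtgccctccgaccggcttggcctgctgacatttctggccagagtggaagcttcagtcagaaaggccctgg
D7, chr2:74702321-74702500, plus strand: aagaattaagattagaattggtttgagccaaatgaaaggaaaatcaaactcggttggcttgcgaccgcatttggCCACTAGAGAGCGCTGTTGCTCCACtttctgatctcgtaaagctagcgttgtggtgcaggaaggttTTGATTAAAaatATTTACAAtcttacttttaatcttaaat
D8, chr2:74715881-74716040, plus strand: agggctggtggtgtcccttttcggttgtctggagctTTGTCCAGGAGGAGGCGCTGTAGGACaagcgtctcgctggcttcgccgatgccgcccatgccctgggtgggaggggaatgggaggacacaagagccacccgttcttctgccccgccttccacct
A12, chr6:52305961-52306180, plus strand: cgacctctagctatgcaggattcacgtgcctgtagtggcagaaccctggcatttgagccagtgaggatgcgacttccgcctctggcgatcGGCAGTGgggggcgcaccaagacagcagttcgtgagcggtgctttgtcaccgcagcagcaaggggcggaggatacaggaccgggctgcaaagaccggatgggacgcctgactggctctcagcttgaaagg

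In C3 the bases protected in both replicates ran over the whole match and the letters after it. The same held for most of the match and all of the letters in D7. That site also held protected runs away from the match, at chr2:74702461-74702469 and chr2:74702473-74702480. In B8 a protected run covered most of the match and a second began inside the letters. In D8 the run covered the whole match. In A12 a single short run was protected in both replicates.

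Nearly all Hox promoters were without a peak. A promoter was counted as open when a shared peak lay within 500 bp of a start site of a protein-coding transcript, and 1 of 39 Hox genes met this, against 57.1% of all 21853 protein-coding genes. That gene was Hoxa7 (ENSMUSG00000038236.8, chr6:52214491-52221854, minus strand), a central Hox gene used in the trunk. In replicate 1 alone 7 Hox promoters had a peak, against 63.4% of all genes, and in replicate 2 alone 1 had, against 58.5%. The other 32 Hox genes had no promoter peak in either replicate.

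Hoxa7 stood apart from the rest in both replicates. Its promoter site A6 (chr6:52221381-52221920) reached heights of 2.75 and 2.56, and the lowest false discovery rate (FDR) deposited there was 3.33e-21 in replicate 1 and 9.18e-11 in replicate 2. The site held 5 and 3 footprints and covered the outermost annotated start, part of the 5′ untranslated region and sequence before it. The first coding base of Hoxa7, at chr6:52217405, lies outside the site. The 4 start sites of the gene were counted together, so the promoter peak does not show that each of them was open. Its height was above 88.9% of all peaks in each replicate. The site was 2 peaks in replicate 1 and 1 wider peak in replicate 2, so with 50% reciprocal overlap required 0 of 39 Hox promoters were open. Of the 3056 bases within 500 bp of its 4 start sites, 596 had a listed FDR in replicate 1 and 507 in replicate 2.

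The other 6 promoters with a peak had it in replicate 1 alone. Hoxa4, Hoxb5 and Hoxc5 act in the neck and upper trunk, Hoxa10 and Hoxc10 in the lower back and limbs, and Hoxb13 in the tail and prostate. Hoxc5 had the highest of these, at 1.05 (lowest FDR 4.87e-08). Hoxa10 followed with 0.802 (3.11e-05), Hoxb5 with 0.754 (1.37e-04) and Hoxa4 with 0.620 (2.99e-04). The 2 weakest, Hoxc10 with 0.444 (0.00775) and Hoxb13 with 0.348 (0.00988), were in the longer list but not in the shorter, stricter list. None of the 6 had a listed FDR within 500 bp of its start in replicate 2.

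**Figure D1:**
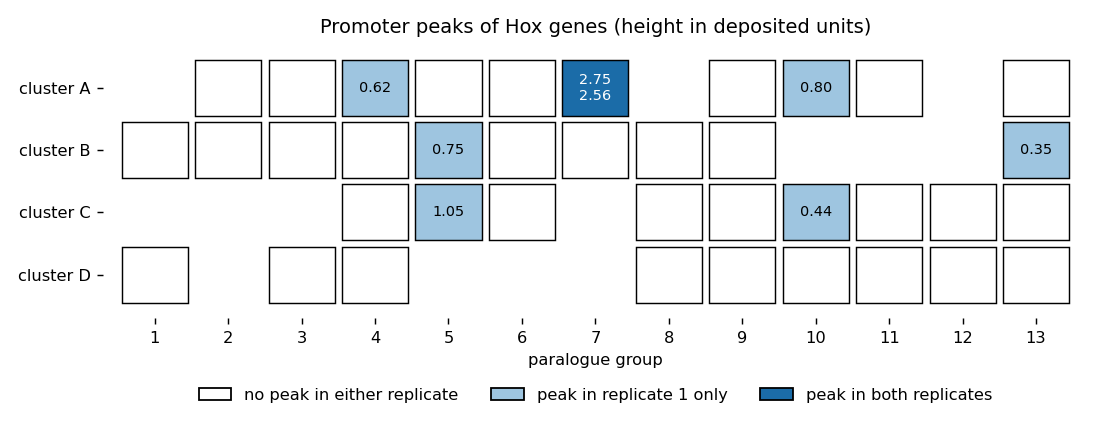
Each box is a Hox gene, placed by cluster (rows) and paralogue group (columns), and the numbers are peak heights in deposited units, replicate 1 above replicate 2 for Hoxa7. Hoxa7 (2.75 and 2.56) is the gene with a peak in both replicates, 6 genes have one in replicate 1 only, and cluster D has none.

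The deposited FDR values, which list single intervals and so reach below the peaks, added 1 gene. A listed FDR below 0.05 in both replicates was found for 1 of 39 Hox promoters against 58.9% of all genes. In replicate 1 it was found for 8, against 64.4%, and in replicate 2 for 1, against 59.7%. The added gene was Hoxc13, a gene of the tail end and of hair follicles, with 20 bases and a lowest FDR of 0.037 in replicate 1. The 31 other genes without a promoter peak had no listed interval in either replicate within 500 bp of a start.

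Few promoters had a peak in any cluster or paralogue group. In replicate 1 peaks were found at 3 of 11 promoters in cluster A, 2 of 10 in B, 2 of 9 in C and 0 of 9 in D. By paralogue group they were found at 0 of 8 anterior genes (groups 1 to 3), 4 of 15 central genes (groups 4 to 8) and 3 of 16 posterior genes (groups 9 to 13). Groups 5 and 10 had 2 members each with a peak (Hoxb5 and Hoxc5, Hoxa10 and Hoxc10), groups 4, 7 and 13 had 1, and the other groups had none. With 0 to 3 genes a row these counts give no order of clusters or groups.

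Base composition was then examined, since CpG-rich promoters are open in most tissues. The CpG ratio, the observed number of CG pairs over that expected from base content, had a median of 0.722 over the 500 bp on both sides of Hox starts and 0.614 over all genes. For a gene with several starts, the start with the highest ratio was taken, also for GC content. That start need not be the one with a peak. Median GC content was 57.4% and 55.9%. Of all promoters with a ratio of at least 0.6, 90.6% had a shared peak, while 1 of 28 such Hox promoters had one. Below 0.6 the shares were 21.7% of all genes and 0 of 11 Hox genes. Promoters as CpG-rich as Hoxd8 (ratio 1.003) and Hoxa5 (0.996), and Hoxa13 with a GC content of 76.2%, had no peak in either replicate.

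**Figure D2:**
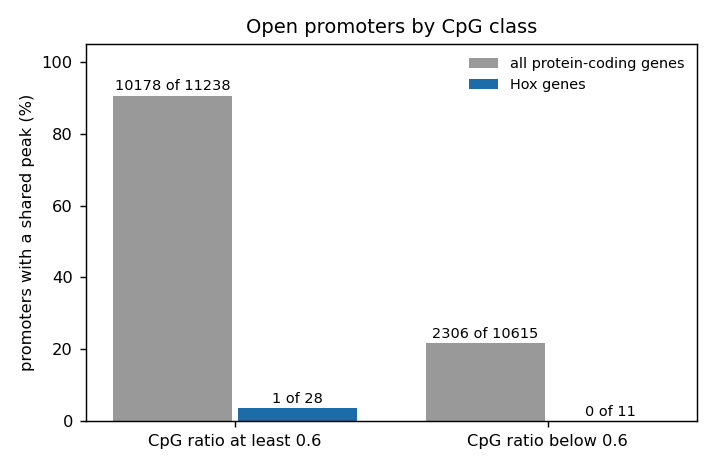
Bars show the percentage of promoters with a shared peak for all protein-coding genes (grey) and Hox genes (blue) in 2 classes of CpG ratio, with the gene counts above them. In the CpG-rich class 1 of 28 Hox promoters is open against 90.6% of all promoters.

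The Hox regions were not empty of open chromatin. They held 37 sites, of which 9 were shared, 27 were found in replicate 1 only and 1 in replicate 2 only. Promoters of Hox genes held 7 of the sites, stretches between Hox genes 10, Hox gene bodies 8, the promoter of another gene 1 and the 50 kb flanks 11. The 9 shared sites gave 10 shared peaks, since A6 was split in 2, which is 1.12 per 100 kb against 1.93 over the 19 autosomes and X. The density was 1.95 in cluster A, where A6 counts as 2 peaks, 0.730 in B, 0.463 in C and 1.52 in D. The order of A and D depended on the setting. With the stricter lists the values were 0.974 in A and 1.02 in D, and with 50% reciprocal overlap 0.974 and 1.52. Without flanks they were 2.85 and 2.07. Over all windows of 100 kb the median count of shared peaks was 1 (quartiles 0 and 3), and in windows with at least 5 protein-coding genes it was 6 (2 and 9).

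By replicate, the density of peaks was 4.15 per 100 kb in replicate 1 against 5.03 over the genome, and 1.12 in replicate 2 against 2.27. Cluster A had the most in replicate 1 (6.33) and cluster C the fewest (2.32), while in replicate 2 cluster D had the most (2.03) and cluster C again the fewest (0.463). The order of A, B and D therefore differed between replicates.

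**Figure D3:**
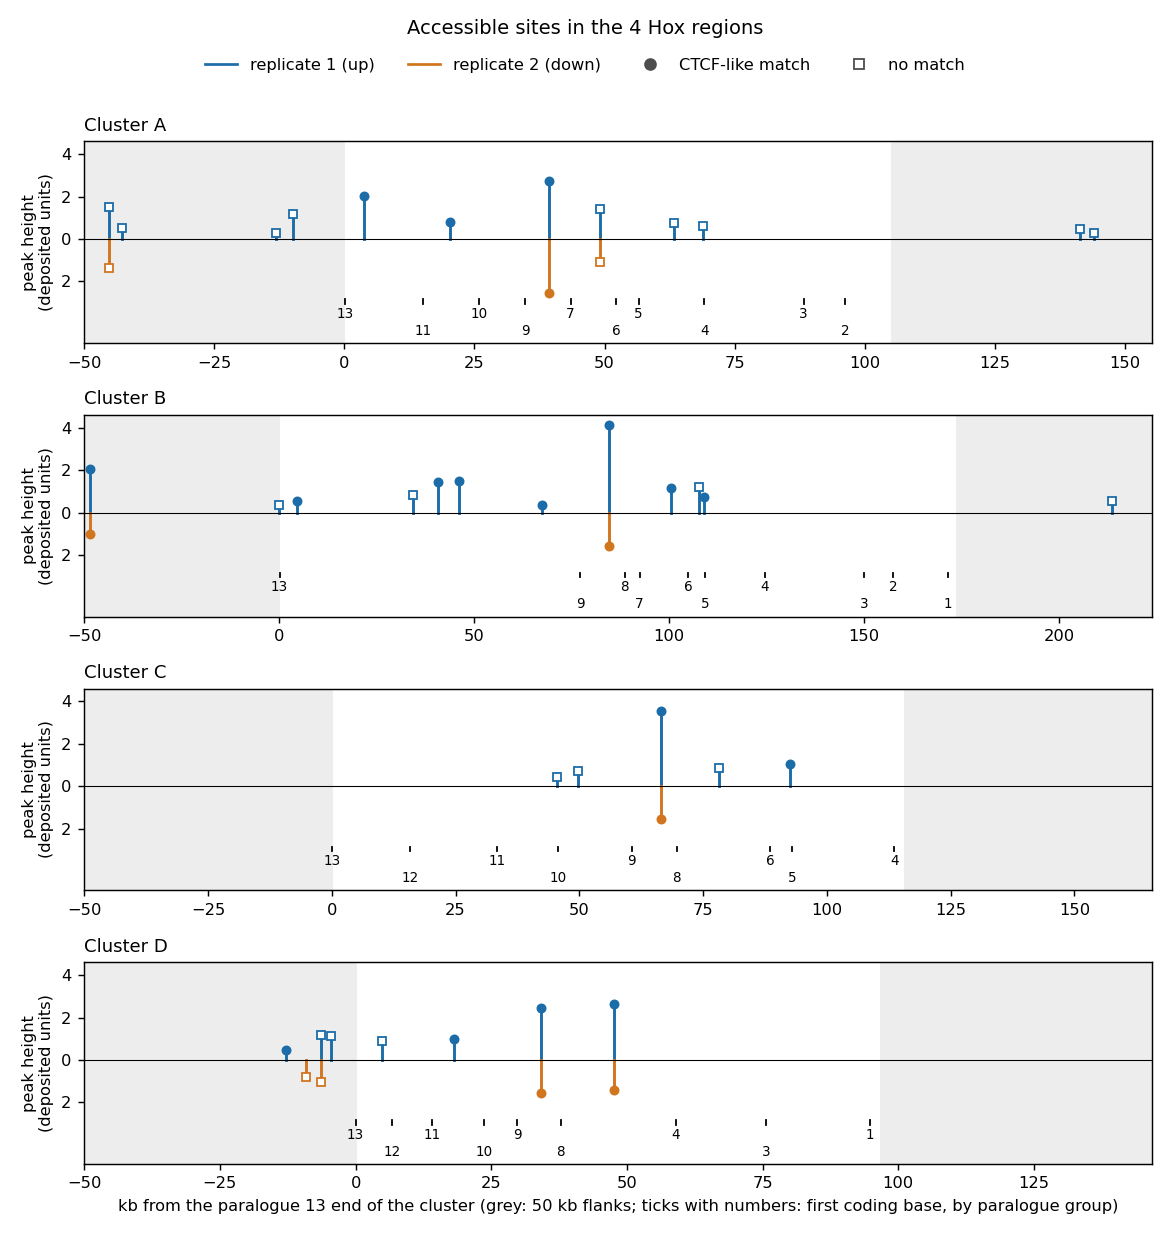
Each panel is 1 cluster, drawn from its paralogue 13 end with distance in kb, and each stem is a site with its peak height in deposited units, replicate 1 upward in blue and replicate 2 downward in orange. Filled circles mark a CTCF-like match, grey the flanks, and numbered ticks the first coding base of paralogues. No site lies between the paralogue 4 tick and the grey area to its right in any of the 4 clusters.

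Sites were absent from the 3′ end of every cluster. From the first coding base of paralogue 4 to the 3′ end of the last Hox gene the 4 clusters together hold 126 kb and 12 Hox genes, and no peak of either replicate lay there. Gene starts and long gene models can reach beyond this part. Site A3, at the Hoxa4 promoter in replicate 1 only, lay just outside it, although Hoxa4 is counted among the 12. Sites A5 and D8 lay in long models of Hoxa3, and of Hoxd3 and Hoxd4. The remaining 366 kb with 27 Hox genes held 24 sites, 6 of them shared, or 6.55 per 100 kb. Bases with a listed FDR numbered 53 in replicate 1 and 0 in replicate 2 at the 3′ ends, against 6387 and 1591 in the rest. The split at paralogue 4 was chosen after the sites had been seen, and cluster C, whose lowest gene is Hoxc4, gives 2.13 kb of the 3′ part.

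Long peak-free stretches made up much of each region. The longest in cluster B ran for 104 kb and held Hoxb1 to Hoxb5. In cluster D 99.1 kb from site D8 to the end of the region held Hoxd1 and the coding parts of Hoxd4 and Hoxd3. In cluster A it ran for 72.4 kb. In cluster C the longest lay at the other end, 95.5 kb with Hoxc11, Hoxc12 and Hoxc13. Of all windows of 100 kb, 13.4% held no peak of either replicate, and of those with at least 5 protein-coding genes 7.70%. These windows have fixed places, while each stretch above is the longest of its region, so the measures differ.

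The 4 sites between paralogues 9 and 8 (or 7) were among the strongest of the regions. B8 (chr11:96278885-96279060, intergenic, 2845 bp from the Hoxb8 start) had heights of 4.12 and 1.59, the highest of any Hox site in replicate 1. C3 (chr15:102987521-102987700, 2907 bp from the Hoxc8 start, in an intron of a long Hoxc5 model) had 3.57 and 1.55. D7 (chr2:74702281-74702500, intergenic, 2115 bp from the Hoxd8 start) had 2.43 and 1.55. With A6 (2.75 and 2.56), these were the 4 highest Hox sites in replicate 2. In replicate 1 D8 lay between A6 and D7. Their longest footprints were 25 bp in A6, 33 bp in B8, 29 bp in C3 and 35 bp in D7 in replicate 1, and 19, 19, 28 and 25 bp in replicate 2.

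Other shared sites lay inside clusters A and D and in the flanks. D8 (chr2:74715861-74716040) had 2.63 and 1.41, lay between the coding parts of Hoxd8 and Hoxd4, and overlapped an exon of the antisense RNA gene Hoxd3os1 within 500 bp of a start of it, as well as long models of Hoxd3 and Hoxd4. A5 (chr6:52211661-52211840) had 1.43 and 1.09 and lay between the coding parts of Hoxa6 and Hoxa7, in introns of a long Hoxa3 model and of the antisense gene Hoxaas3. B1 (chr11:96145621-96145880, 2.05 and 1.00) lay in a coding exon of Ttll6, a tubulin-modifying enzyme gene in the flank of cluster B. A12 (chr6:52305961-52306200, 1.53 and 1.38) and D3 (chr2:74661901-74662100, 1.17 and 1.02) lay between genes, D3 between Evx2 and Hoxd13. Of the 9 shared sites, A5 and D3 were in the stricter list of replicate 1 but not of replicate 2, and the other 7 were in both stricter lists.

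**Figure D4:**
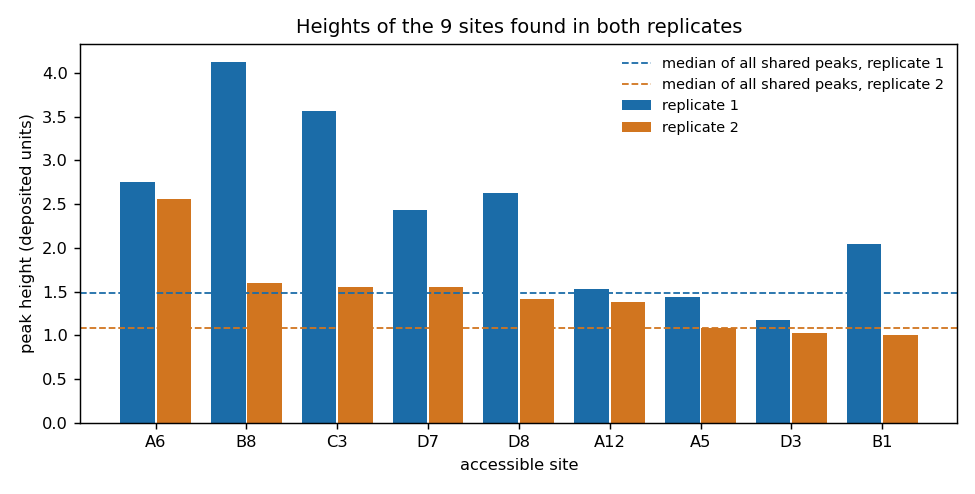
Bars give the peak height in deposited units of the 9 shared sites in replicate 1 (blue) and replicate 2 (orange), ordered by the lower of both values, and dashed lines give the medians of all shared peaks, 1.48 and 1.09. A6, B8, C3, D7, D8 and A12 lie above both medians.

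Shared Hox peaks had median heights of 2.24 and 1.48 against 1.48 and 1.09 over the genome. Of the 37 replicate 1 peaks in the Hox regions 27.0% (95% exact binomial interval 13.8 to 44.1) were found in replicate 2, against 38.03% over the genome. For peaks with a height of at least 1 the share was 52.9% (27.8 to 77.0) of 17, against 76.0%, and for lower peaks 5% of 20, against 19.6%. In the other direction, 9 of 10 replicate 2 peaks were found in replicate 1, against 81.8%. These intervals cover counting error only, and both include the genome value.

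The tallest site missing from replicate 2 was A8 (2.03; chr6:52257041-52257220), between the coding parts of Hoxa11 and Hoxa13 at the start of the unclassified transcript 9530018H14Rik. It had a lowest FDR of 1.50e-17 in replicate 1 and none listed in replicate 2. B6 (1.47) and B5 (1.44), in the wide gap between Hoxb13 and Hoxb9, came next. Of these, B6 had a listed FDR of 0.0336 in replicate 2 without a peak.

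Matches to the CTCF sequence were counted in 2 ways. The exact letters CCNNNAGNNGGC, read on both strands of each site widened to at least 200 bp, were found in 4 of 9 shared sites and 5 of 28 other sites, and in 18.4% of shared peaks elsewhere. The shared sites with these letters were A6, B1, B8 and D8, and the central sites C3 and D7 did not hold them. A matrix of 20 positions, learned outside the clusters from footprints of at least 20 bp in both replicates and added after these counts had been seen, found a match in 6 of 9 shared sites (A6, B1, B8, C3, D7 and D8), in 11 of the 27 sites of replicate 1 only and not in the 1 site of replicate 2 only. A match was called at the score that 1% of 9503 control stretches of 200 bp reached. At that score 20.5% of shared peaks elsewhere had one, 29.2% of distal shared peaks and 7.42% of promoter peaks. In both counts Hox sites were read over the joined peaks, 540 bp in A6, and shared peaks elsewhere over the overlap of both replicates. Hox windows could thus be longer, with more room for a match. Among replicate 1 peaks, shared or not, 17 of 36 Hox sites had one, against 16.6% elsewhere. The count depended on the score. At that of 0.1% of control stretches, 2 of 9 shared sites and 5 of all 37 matched, against 12.2% of shared peaks elsewhere. At that of 5% of control stretches, 8 of 9 and 24 of 37 did, against 32.6%.

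Long footprints and matches occurred at the same sites. Of the 12 Hox sites with a replicate 1 footprint of at least 20 bp, 11 had a match, against 49.9% of 28038 such peaks elsewhere. Site A11, in the flank of cluster A, was the exception. At 15 of the 17 matches a replicate 1 footprint lay over the match, and at 11 one of at least 20 bp did. At 5 of the 6 matches in shared sites a replicate 2 footprint did as well, and the exception was B1. A match is a resemblance in sequence, and binding of CTCF was not measured.

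**Figure D5:**
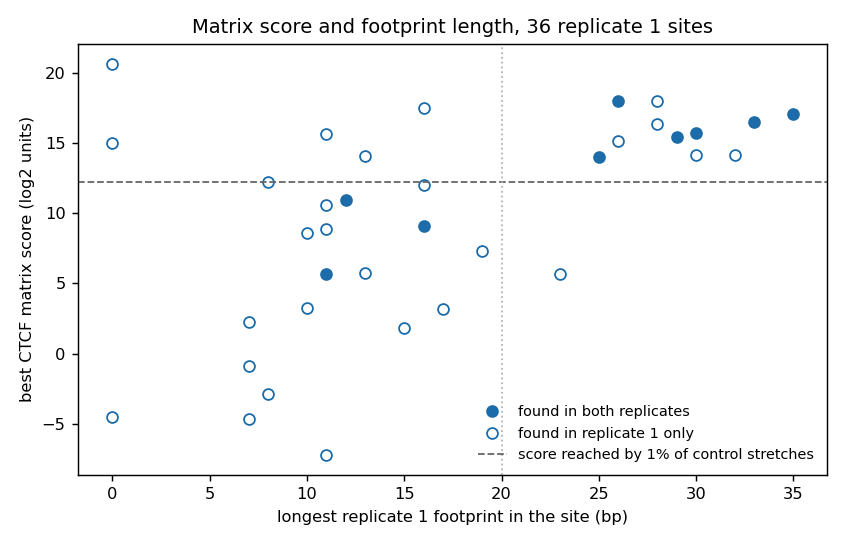
Each point is 1 of the 36 sites with a replicate 1 peak, with the longest replicate 1 footprint in bp on the horizontal axis and the best CTCF matrix score in log2 units on the vertical axis. Filled points are shared sites, the dashed line is the score reached by 1% of control stretches, and 11 of the 12 points at or beyond 20 bp (dotted line) lie above it.

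Positions of the matches were compared across paralogous gaps. The gap between paralogues 9 and 8 (or 7) held a match in all 4 clusters, at a shared site in each. At the score reached by 0.1% of control stretches D7 was the 1 of these 4 sites that kept its match. That between 6 and 5 held one in cluster B (B11, at the Hoxb5 promoter) and cluster C (C5, at the Hoxc5 promoter), and that between 11 and 10 in cluster A (A7, at the Hoxa10 promoter) and cluster D (D6), all in replicate 1 only. So 4 of the 7 Hox promoters with a peak, Hoxa7, Hoxa10, Hoxb5 and Hoxc5, held a match. By position, 7 of 10 sites between Hox genes, 4 of 8 in Hox gene bodies, 4 of 7 at Hox promoters and 2 of 11 in the flanks held one. By cluster, the counts were 3 of 12 sites in A, 8 of 12 in B, 2 of 5 in C and 4 of 8 in D.

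Direction varied between clusters. Matches lay on the strand from which the Hox genes are transcribed at 2 of 3 sites in cluster A, 3 of 8 in B, 2 of 2 in C and 3 of 4 in D. In cluster B the 5 matches on the opposite strand were B3, B5, B6 and B7, all between Hoxb13 and Hoxb9, and B9, between Hoxb7 and Hoxb6.

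Sequences that Hox proteins, their partners and other factors bind were counted as well, and each count rests on few sites. The share elsewhere is that of shared peaks, also beside counts of sites that were not shared. Here too the windows of Hox sites could be longer than those elsewhere. The Hox/Pbx letters TGATNNAT were in 0 of 9 shared and 1 of 28 other sites (A3, at the Hoxa4 promoter), against 4.45% of shared peaks elsewhere, and the homeodomain letters TAATTA in none of the 37, against 2.39%. The AP-1 letters TGANTCA were in 0 of 9 and 5 of 28, against 5.96%, and the GC box GGGCGG in 4 of 9 and 6 of 28, against 29.4%. Paired sites of the retinoic acid receptor (AGNTCANNNNNAGNTCA), through which retinoic acid acts on Hox genes, were in none, against 0.0355% of shared peaks. All motifs were read on both strands, and no match says only that these letters are not in these windows.

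Footprints in the regions numbered 72 in replicate 1 and 16 in replicate 2, and 10 places had a footprint in both (3 in cluster A, 2 in B, 1 in C and 4 in D). Of those in replicate 1, 70 lay in peaks, and all 16 of replicate 2 did. Lengths of at least 20 bp were reached by 16.7% and 18.8% of them, against 13.3% and 6.55% over the genome. Footprints of at least 20 bp in both replicates were present in 3 of 9 shared sites (C3, D7 and D8), against 11.2% of all shared peaks. Listed FDR intervals covered 10.3 and 2.77 bases per kb of the regions, against 14.04 and 7.66 over the autosomes and X.

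Few of the other genes that start inside the regions had a peak. Of 4 other protein-coding genes none had a shared peak, and Evx2, a homeobox gene beside cluster D, had one of 0.796 in replicate 2 only (site D2). None of the 7 annotated microRNA genes, which include Mir10a, Mir10b, Mir196a-1, Mir196a-2, Mir196b and Mir615, had a peak within 500 bp of its annotated start, which is the start of the hairpin and not of the primary transcript. Of 20 antisense and long noncoding genes, Hoxd3os1 had a shared peak and Gm53, beside Hoxb9, had one in replicate 1 only.

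Genes for the machinery of Hox control were open. Shared promoter peaks were found for all 11 PRC2 genes of the list, among them Jarid2 (11.02 and 4.04) and Mtf2 (7.59 and 4.25), and all 18 PRC1 genes, led by Pcgf1 (11.5 and 6.08); both complexes carry out Polycomb silencing. Of 10 genes of MLL complexes 9 had one, led by Kmt2a (10.3 and 4.89), and the demethylase gene Kdm6b had one in replicate 1 only. All 8 genes of CTCF and cohesin did, among them Stag1 (11.4 and 5.74) and Smc3 (8.86 and 6.53). The TALE homeodomain partners that bind DNA with Hox proteins had 9 of 9, with Pknox1 at 6.08 and 3.47 and Pknox2 at 4.41 and 1.77. Each count stands against 57.1% of all genes, and against 90.6% of genes whose promoter has a CpG ratio of at least 0.6. The CpG ratios of the listed genes are not given here, so the counts may be no higher than that of their class.

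Relatives and neighbours of the Hox genes divided. Of the 6 ParaHox genes, a sister group of the Hox genes, only Gsx1, used in the early brain, had a shared peak (0.738 and 0.721), and Cdx1, Cdx2, Cdx4, Gsx2 and Pdx1 had no peak in either replicate. Of 10 genes that neighbour the clusters 7 had one, among them Skap2 beside cluster A (6.27 and 2.48), Calcoco1 beside cluster C (6.70 and 3.001) and Atp5g1 beside cluster B (5.41 and 2.94). Evx1, the homeobox gene beside Hoxa13, and Skap1 had no peak.

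The edges of the regions were set by the rule. Widening the flanks to 100 kb added 6 shared peaks. The highest, on the far side of Evx2 from cluster D (chr2:74578881-74579100, 4.52 and 2.80), exceeds every shared peak inside the cluster D region. Its heights are those of the promoter peak of the neighbouring gene Lnpk. The last shared peak inside an edge was that of B1. The first outside the same edge had 1.503 and 0.613, the heights of the Ttll6 promoter peak. The distance from a Hox start to the nearest shared peak had a median of 19940 bp and reached 86710 bp at Hoxb1.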

How the data were processed

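DNase-seq of 2 hippocampus samples (1 group) was read from files that the authors deposited per sample. Per the labels they are on assembly mm10. The aligner and callers were not given in the sources used here. Deposited peaks come in 2 lists, and their height is a signal value whose scaling is not stated. The deposited FDR files list intervals with a q-value (an adjusted p-value) and hold only values below 0.05. The deposited footprints carry a constant in their value column and were used by position. Sequencing depth was unknown.

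Shared peaks were intersections of overlapping longer-list peaks of both replicates (at least 1 bp). Annotation was GENCODE M21 and sequence RefSeq GRCm38.p6. Python 3.11.15, pandas 2.3.3, scipy 1.17.1 and samtools 1.23.1 were used, and overlaps and matrix scoring were checked on simulated data. With 1 group and no comparison, no test was made and counts stand beside all genes. The genes and lists were chosen with earlier results of these data known. Named were Hox genes with any promoter peak, all shared sites, other genes with a shared promoter peak, and up to 3 open and 5 other genes of each list. Alternatives were the stricter lists, 50% reciprocal overlap, 1 replicate, equal list lengths, other windows, flanks, start sites and thresholds. Results of a few genes are not reported here.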

Additional observations from a re-analysis of the deposited data

How the results depend on the processing

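Using 1 replicate alone gave 1 to 7 Hox promoters with a peak, 1 to 8 with a listed FDR, 10 to 37 peaks in the regions and 16 to 72 footprints, where the shared counts were 1, 1, 10 and 10. Density per 100 kb then ranged from 1.46 to 6.33 in cluster A, 0.730 to 4.38 in B, 0.463 to 2.32 in C and 2.03 to 3.56 in D. Hox promoters with a shared peak numbered 0 with 50% reciprocal overlap, 2 (with Hoxa3 added) within 2000 bp, and 7 with a peak in at least 1 replicate. With listed FDR they numbered 2 within 2000 bp. Flanks of 100 kb gave 16 shared peaks. The stricter lists left 0 open oligodendrocyte genes and 0 open meningeal or fibroblast genes. At the score reached by 0.1% of control stretches, an alternative chosen after seeing the data like the matrix itself, a CTCF-like match was left in 2 shared sites and 5 of all sites, and the exact letters alone gave 9 of all sites. Of the alternatives tried 57 were classed as close to the main value and 19 as moved. These classes did not follow 1 fixed ratio. A density of 0.974 in cluster A with the stricter lists, against 1.95, was classed as close. The 16 shared peaks with flanks of 100 kb, against 10, were classed as moved. An FDR threshold of 0.1 was not run, since the files list no value above 0.05. No paired analysis was possible because the series held 1 group.

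Replicate 1 had more peaks than replicate 2, and 27 of the 37 Hox sites rest on it alone. No peak means that none was called in the mixed tissue, not that no cell was open. Peaks pool both parental alleles. Promoter windows of neighbouring Hox genes and long gene models overlap, so a site can belong to several genes.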
